A study of Mus musculus with 14 samples.

Results

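The colony-stimulating factor (CSF) family was described here by 6 genes of sorted spinal cord microglia, chosen by their symbols: the receptor genes Csf1r, Csf2ra, Csf2rb, Csf2rb2 and Csf3r and the ligand gene Csf1. They were 6 of the 14329 genes measured, and every listed member was found. The study ran bulk RNA-seq on CD45low CD11b+ CX3CR1+ cells sorted from the dorsal horn of 6-month-old mice on day 5 after serum transfer. WT mice and TASTPM mice, both on a C57BL/6 background, received either K/BxN serum (K/BxN ST), which transfers an antibody-driven arthritis, or control serum (Control ST). There were 3 libraries of WT Control ST, 4 of WT K/BxN ST, 3 of TASTPM Control ST and 4 of TASTPM K/BxN ST. TASTPM mice are heterozygous for human mutant transgenes, which a Thy-1 promoter drives in neurons, and the WT mice carried neither transgene. Libraries are numbered within each group in the order of the table's columns, and the numbers do not link groups.

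Colony-stimulating factors are secreted proteins that keep myeloid cells alive and guide their growth. CSF1R is a receptor tyrosine kinase for CSF1 and IL-34, and microglia depend on it for survival. GM-CSF, IL-3 and IL-5 each bind an alpha chain of their own that pairs with the common beta chain encoded by Csf2rb, and the mouse has a further beta chain, encoded by Csf2rb2, that serves IL-3 only. G-CSF, the main growth factor of neutrophils, signals through CSF3R, and these cytokine receptors, which have no kinase of their own, work through JAK and STAT proteins.

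Depth ran from 14223015 to 20239175 reads on genes per library (median 17081524). Of the K/BxN ST libraries, 4 stood apart from the rest. In WT K/BxN ST 1 and 2 and TASTPM K/BxN ST 1 and 2, the summed markers of neutrophils and classical monocytes ran from 105661 to 402182 normalized counts, against 127 to 3160 in the other 10 libraries. Of the 12 classical monocyte markers, 11 were higher in each of these 4 libraries than in any other library, and the leading one, Chil3, ran from 25628 to 69026 against 5.73 to 35.2. Of the 11 neutrophil markers measured, 3 were, and the leading one, Ngp, ran from 32.8 to 63729 against 0.838 to 51.2. The 4 libraries were picked by this marker sum, above 100000 and with the values seen, so the separation of the markers is partly fixed by that choice. Of all genes tested, 7.63% were likewise higher in each of the 4 than in any other library. Microglia were present in all libraries: the sum of 13 microglia markers was 309580 to 733590 in the 4 libraries and 887718 to 1228280 in the others. The study's gate also took out Ly6C+ and CCR2+ cells, which would remove classical monocytes, yet Ccr2 ran from 8537 to 27035 in these 4 libraries against 3.13 to 86.0 in the others, and Ly6c2 from 12898 to 29133 against 1.87 to 17.8. These 4 libraries are called marker-rich below. They were at 0 to 12.5 normalized counts of Xist, which marks female cells, against 1.17 to 5816 in the others, and these ranges overlapped. A sex-linked score (Xist against Y-linked genes, higher in female libraries) ran from -1.14 to -0.69 in these 4 libraries. WT K/BxN ST 3 and 4 scored 1.17 and 1.24, so in that group sex and marker content cannot be told apart. TASTPM K/BxN ST 3 scored -0.98 and TASTPM K/BxN ST 4 scored 1.08. In a bulk sample, fewer cells of a type and less RNA per cell cannot be told apart.

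The 6 genes spanned a wide range of levels. Divided by exonic length, the mean over 14 libraries was 30699 normalized counts per kb for Csf1r, 1382 for Csf3r, 768 for Csf2ra, 336 for Csf2rb, 82.8 for Csf2rb2 and 43.5 for Csf1. Csf1r ranked 3 among all genes by its mean normalized count, which was 225975. The step from Csf1r to Csf3r was at least 15.5-fold per kb within every library. Csf2ra exceeded Csf2rb per kb in 14 of 14 libraries, by 1.15-fold to 3.83-fold, and Csf2rb exceeded Csf2rb2 in 14 of 14, by 1.65-fold to 16.03-fold. Csf3r exceeded Csf2ra per kb in 11 of 14 libraries, and the exceptions were the marker-rich libraries WT K/BxN ST 1 and TASTPM K/BxN ST 1 and 2. Csf2rb2 and Csf1, the lowest neighbours, came as close as 1.13-fold within a library, and their ranges over the 14 libraries overlapped. All 6 genes passed the filter on low values with at least 10 reads in each of the 14 libraries, and the thinnest value was 41 reads of Csf1.

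**Figure D1:**
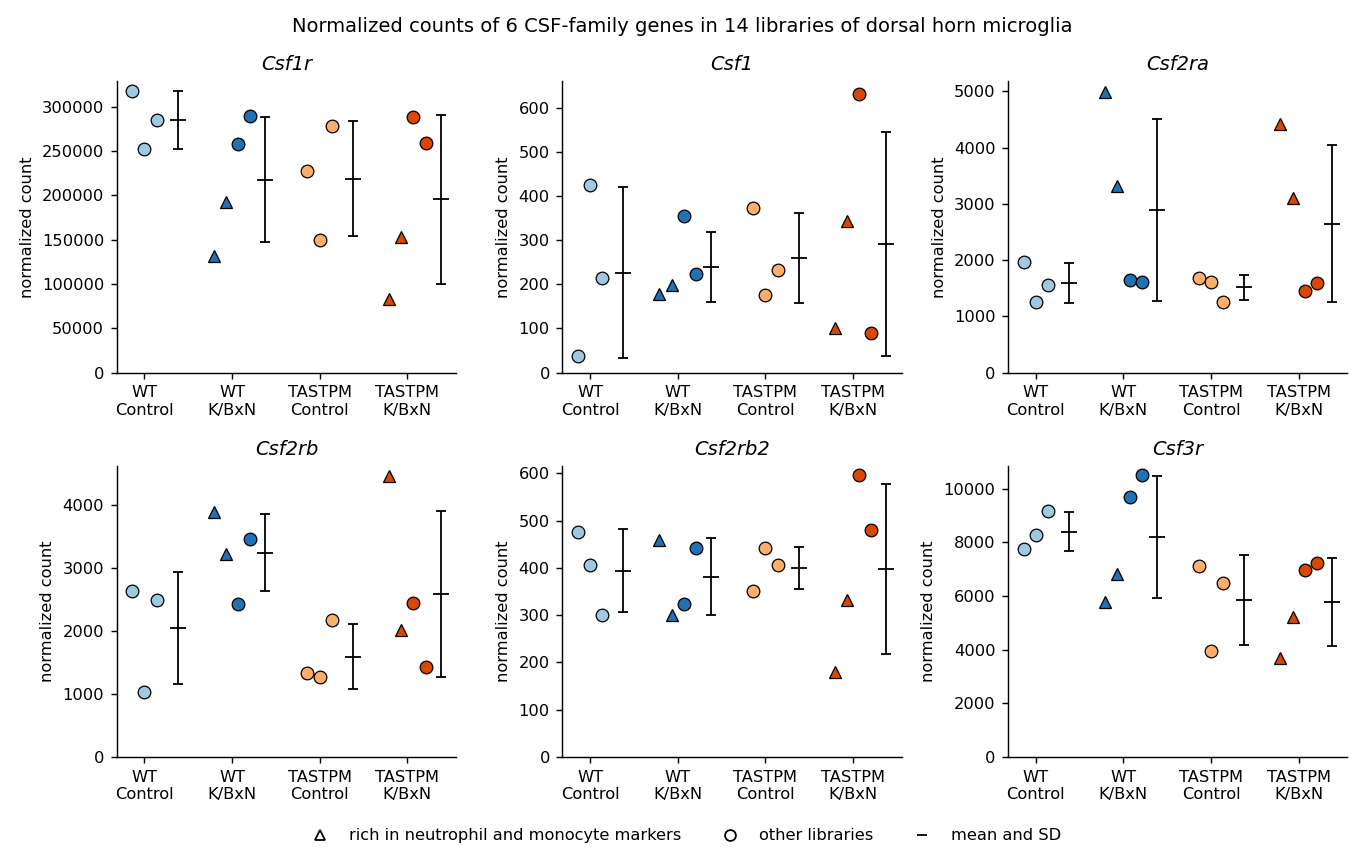
Normalized counts (vertical axes, linear, from 0) of the 6 CSF-family genes in the 14 libraries by group. Points are libraries, triangles are the 4 marker-rich K/BxN ST libraries, and bars are the mean and SD of a group. Csf2ra lies at 3100 to 4994 in the triangles and at 1253 to 1967 in all circles, and Csf3r is lower in each TASTPM Control ST library than in each WT Control ST library.

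Whether serum transfer or genotype moved these genes was asked with limma on log2 (normalized count + 1), in one model of the 4 groups over 12645 genes. A gene was called where its Benjamini-Hochberg adjusted p was below 0.05 and its log2 fold change was beyond 1 in either direction. No member was called in any of 7 comparisons, and the smallest adjusted p of a member was 0.536. Of these 42 limma tests, 3 had an unadjusted p below 0.05. Neither edgeR nor DESeq2 on the recovered reads called a member in the comparisons checked with them, which the last section lists. Over all genes, limma called 1 gene, or 0.00791% of those tested, for the serum effect in WT, and 0% for that effect in TASTPM and in the average over genotypes, for the interaction of genotype and serum, and for the effects of genotype. Exact two-sided permutation tests of single genes, given below without adjustment, can reach 0.0286 for 4 libraries against 3 and 0.100 for 3 against 3.

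Csf1r (ENSMUSG00000024621) lies on the plus strand at chr18:61229714-61266535 of GRCm39 and shares 1461 exonic bases with the antisense gene Hmgxb3. The library kit is not described as keeping strand, so reads from the shared bases cannot be told apart. Csf1r stood at 317164, 252383 and 284690 normalized counts in WT Control ST and at 131195, 192003, 257924 and 289900 in WT K/BxN ST. In TASTPM Control ST it was 227509, 149968 and 278615, and in TASTPM K/BxN ST 82440, 152981, 288267 and 258611. The 4 marker-rich libraries held the lower values of each K/BxN ST group, while the remaining K/BxN ST libraries lay within the range of Control ST in WT, and in TASTPM 258611 lay within it and 288267 above it. The fit gave a log2 fold change for K/BxN ST of -0.44 ± 0.43 (SE) in WT (adjusted p = 0.813) and -0.27 ± 0.43 in TASTPM (adjusted p = 0.969). Averaged over genotypes it was -0.36 with a 95% interval from -1.01 to 0.30 (adjusted p = 0.702). Without the 4 marker-rich libraries the average was 0.16, with an interval from -0.20 to 0.51.

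Over 14 libraries the genes most like it by Pearson's r of log2 values were Adgrg1 (0.987), an adhesion receptor, Slco2b1 (0.983), a membrane transporter, P2rx7 (0.980), an ATP-gated channel, Slc40a1 (0.978), the iron exporter ferroportin, and Gna12 (0.976), a G protein subunit. Over the 10 libraries that were not marker-rich, these values were 0.900 to 0.962. The genes most opposed to it were Hnrnpa2b1 (-0.957), Naca (-0.949) and Ndufb10 (-0.947), which take part in RNA processing, protein synthesis and respiration. Each r is a description of libraries that share their tissue and kit, and the low Csf1r of the marker-rich libraries enters all values over 14.

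The ligand gene Csf1 (ENSMUSG00000014599, minus strand, chr3:107648364-107667806) was the least expressed per kb and the most variable member. It stood at 38.4, 425 and 215 normalized counts in WT Control ST, at 179, 199, 356 and 224 in WT K/BxN ST, at 374, 175 and 232 in TASTPM Control ST, and at 102, 342, 631 and 90.3 in TASTPM K/BxN ST. The highest value was 16.4 times the lowest, and all 4 groups overlapped. Its SD over the 14 libraries was 1.03 on the log2 scale, above that of 72.1% of the genes tested. The log2 fold change for K/BxN ST was 0.59 ± 0.78 (SE) in WT and -0.23 ± 0.78 in TASTPM, and the interaction was -0.82 ± 1.10 (unadjusted p = 0.468), so neither a rise nor a fall of this size could be resolved. The other ligand of CSF1R, Il34, and the ligands of the remaining receptors, Csf2, Csf3, Il3 and Il5, were not analysed here.

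Csf2ra (ENSMUSG00000059326, minus strand, chr19:61212395-61216892), the chain that binds GM-CSF, was the one member whose values in the marker-rich libraries, 3100 to 4994, lay wholly above those of the other 10, as they did for 7.63% of all genes tested. It stood at 1967, 1256 and 1548 normalized counts in WT Control ST and at 4994, 3317, 1642 and 1603 in WT K/BxN ST. In TASTPM Control ST the counts were 1681, 1603 and 1253, and in TASTPM K/BxN ST 4412, 3100, 1458 and 1598. In both genotypes libraries 1 and 2 of K/BxN ST were above all Control ST libraries, while libraries 3 and 4 lay among them. Averaged over genotypes, the ratio of K/BxN ST to Control ST was 1.61-fold, a log2 fold change of 0.69 ± 0.30 (SE) with a 95% interval from 0.05 to 1.33 (unadjusted p = 0.0365, adjusted p = 0.536), and the exact permutation test within genotypes gave p = 0.0629. The separate values were 0.72 ± 0.42 in WT (adjusted p = 0.736) and 0.66 ± 0.42 in TASTPM (adjusted p = 0.964), and they were 0.40 without WT K/BxN ST 1 and 0.37 without TASTPM K/BxN ST 1. Without the 4 marker-rich libraries the average was 0.04 ± 0.17, with an interval from -0.34 to 0.42. With a neutrophil and monocyte score as covariate it was 0.021 (adjusted p = 0.987).

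**Figure D2:**
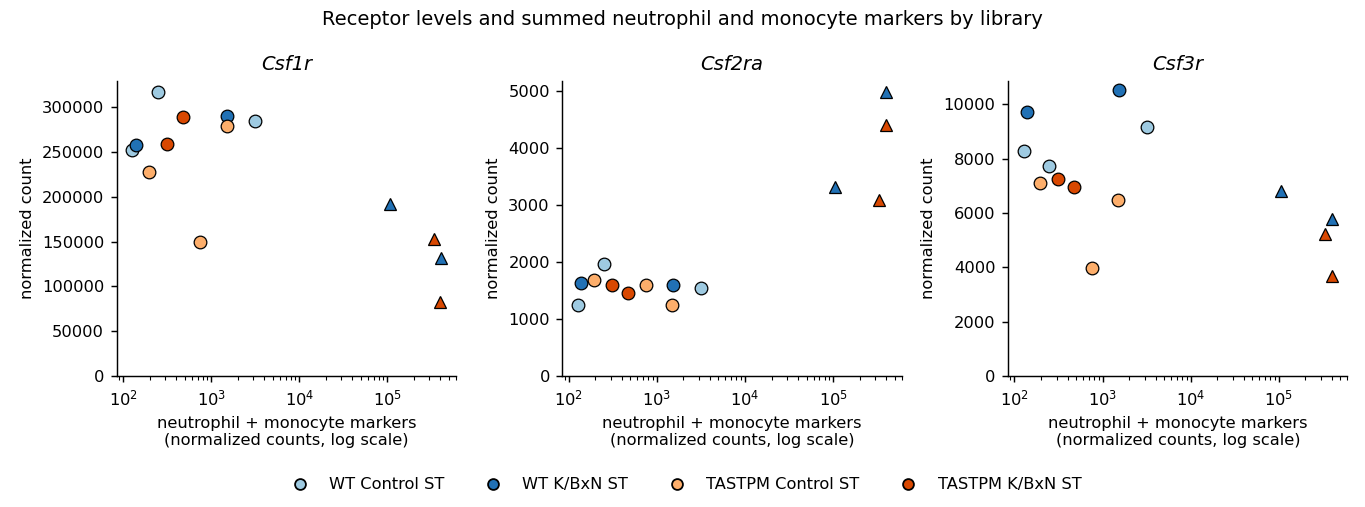
Normalized counts of Csf1r, Csf2ra and Csf3r (vertical axes, linear) against the summed neutrophil and classical monocyte markers (horizontal axes, normalized counts, log scale), with 1 point per library coloured by group and triangles for the marker-rich libraries. The marker-rich libraries lie to the right, at 105661 to 402182, with Csf2ra above and Csf1r mostly below the other 10 libraries.

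The genes most like Csf2ra were Eno1b (r = 0.982 over 14 libraries), Eno1 (0.979), Cnn2 (0.977), Prdx5 (0.969) and Arpc1b (0.969). Eno1 encodes a glycolytic enzyme, Prdx5 a peroxidase, and Cnn2 and Arpc1b act on actin. Over the 10 libraries that were not marker-rich, r fell to between 0.304 and 0.801. Between members, Csf1r and Csf2ra had r = -0.797 over 14 libraries and 0.024 over the 10.

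The common beta chain gene Csf2rb (ENSMUSG00000071713, plus strand, chr15:78209952-78238047) and Csf2rb2 (ENSMUSG00000071714, minus strand, chr15:78166707-78189921) are neighbouring copies. Their coding sequences, of 2688 and 2634 bases, were 95.2% identical over 2628 aligned bases, and the longest run without a mismatch was 242 bases. Of all 150-base windows of the Csf2rb2 transcript, 3.59% also occurred in that of Csf2rb, as did 3.58% of Csf2rb windows in Csf2rb2, and a single read of that length in such a window fits either gene. The study sequenced read pairs, whose mate can tell the genes apart, so these shares are upper limits for a pair. Csf2rb held 2.53 to 24.6 times the reads of Csf2rb2, so the Csf2rb2 count and its share are the less certain, most of all where the share is low. The window of 90 coding bases in which they differ most is printed to show how reads can be told apart. Bases in capitals are the 16 positions at which the genes differ, read 5′ to 3′ on each gene's own strand, from chr15:78223097-78223186 for Csf2rb and chr15:78178545-78178634 for Csf2rb2 in GRCm39.
Csf2rb: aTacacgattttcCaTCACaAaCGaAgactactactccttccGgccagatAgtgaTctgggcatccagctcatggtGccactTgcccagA
Csf2rb2: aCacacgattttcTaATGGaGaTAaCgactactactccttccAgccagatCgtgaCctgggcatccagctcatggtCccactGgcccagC

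Csf2rb did not pass the adjusted test, although its higher values lay mostly in K/BxN ST. It stood at 2635, 1029 and 2485 normalized counts in WT Control ST and at 3880, 3217, 2421 and 3454 in WT K/BxN ST, where 3 of 4 libraries were above every WT Control ST library. In TASTPM Control ST it was 1336, 1267 and 2181, and in TASTPM K/BxN ST 4452, 2016, 2444 and 1429, where 2 of 4 were above. The log2 fold change averaged over genotypes was 0.69 ± 0.27 (SE), or 1.61-fold, with a 95% interval from 0.11 to 1.26 (unadjusted p = 0.0230, adjusted p = 0.536; exact permutation p = 0.0343). In WT it was 0.76 ± 0.38 (adjusted p = 0.711; exact permutation p = 0.114) and in TASTPM 0.61 ± 0.38 (adjusted p = 0.964; exact permutation p = 0.200). Single libraries weighed on both, since the value was 0.32 in WT without WT Control ST 2 and 0.31 in TASTPM without TASTPM K/BxN ST 1. High values of Csf2rb were not limited to the marker-rich libraries: WT K/BxN ST 4, with 1525 counts of the summed markers, held 3454. Without the 4 libraries the average was 0.44 ± 0.30, with an interval from -0.21 to 1.09. The genes most like it were Arhgef10l (r = 0.930), Pcsk7 (0.925), Atp10a (0.886), Anxa7 (0.858) and Gsk3a (0.852), with r from 0.757 to 0.955 over the 10 libraries.

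Csf2rb2 differed little between groups beside its spread. It stood at 475, 407 and 301 normalized counts in WT Control ST, at 459, 301, 324 and 443 in WT K/BxN ST, at 352, 442 and 405 in TASTPM Control ST, and at 181, 332, 596 and 479 in TASTPM K/BxN ST. The averaged log2 fold change was -0.09, with an interval from -0.66 to 0.48 (adjusted p = 0.924). As a share of the reads on both genes, Csf2rb2 ran from 3.91% (95% Wilson interval 3.38 to 4.52, counting error only) in TASTPM K/BxN ST 1 to 28.3% (26.2 to 30.5) in WT Control ST 2. For the log2 ratio of Csf2rb2 to Csf2rb, the mean of K/BxN ST minus that of Control ST was -0.81 in WT (exact permutation p = 0.0857) and -0.75 in TASTPM (exact permutation p = 0.486), and -0.78 averaged over genotypes (exact permutation p = 0.0971). Single libraries carried these values: the difference was -0.33 in WT without WT Control ST 2 and -0.11 in TASTPM without TASTPM K/BxN ST 1, which also took the average to -0.46. Without the 4 marker-rich libraries it was -0.65 in WT, 0.15 in TASTPM and -0.25 in the average. The genes most like Csf2rb2 were Nol4l (r = 0.857), Rgl3 (0.836), Gtf2a1 (0.832), Ptov1 (0.830) and Slc6a11 (0.800).

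**Figure D3:**
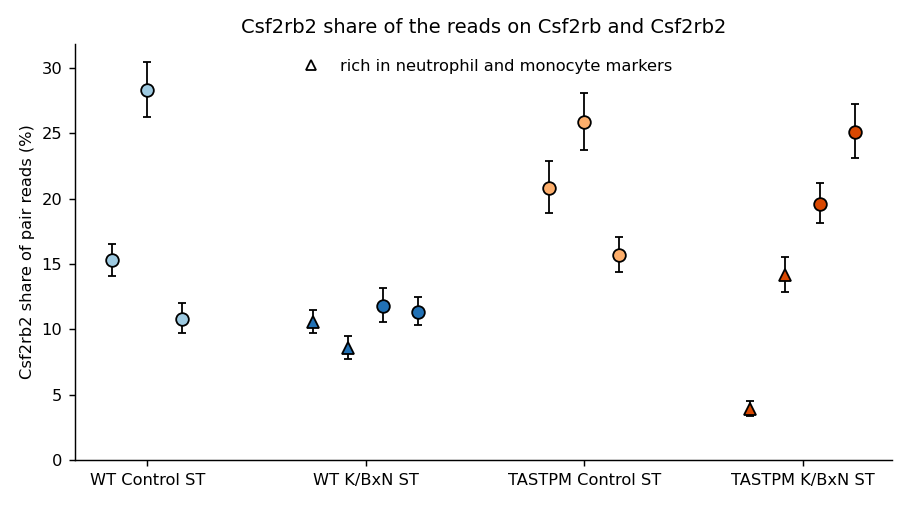
Share of the reads on Csf2rb and Csf2rb2 that fell on Csf2rb2 (vertical axis, percent) in each library by group, with 95% Wilson intervals of counting error as bars and triangles for the marker-rich libraries. The share runs from 3.91% to 28.3%, and the 4 WT K/BxN ST libraries span 8.56% to 11.8%.

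The remaining alpha chain of this receptor family in the table, Il3ra, which binds IL-3, was low, with a mean of 62.5 normalized counts. It stood at 32.8, 101 and 25.8 in WT Control ST, at 163, 113, 56.1 and 48.0 in WT K/BxN ST, at 8.36, 34.4 and 10.9 in TASTPM Control ST, and at 137, 68.5, 30.5 and 45.1 in TASTPM K/BxN ST. The averaged log2 fold change was 1.43 ± 0.56 (SE), with an adjusted p of 0.536, and 0.75 ± 0.76 without the marker-rich libraries. Of the 5 receptor chains measured out of 6 listed, none was called, and Il3ra, Csf2rb and Csf2ra had an unadjusted p below 0.05 in the higher direction, as did 5.79% of all genes (3.46% in the lower direction). The chain that binds IL-5, Il5ra, was not analysed here.

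**Figure D4:**
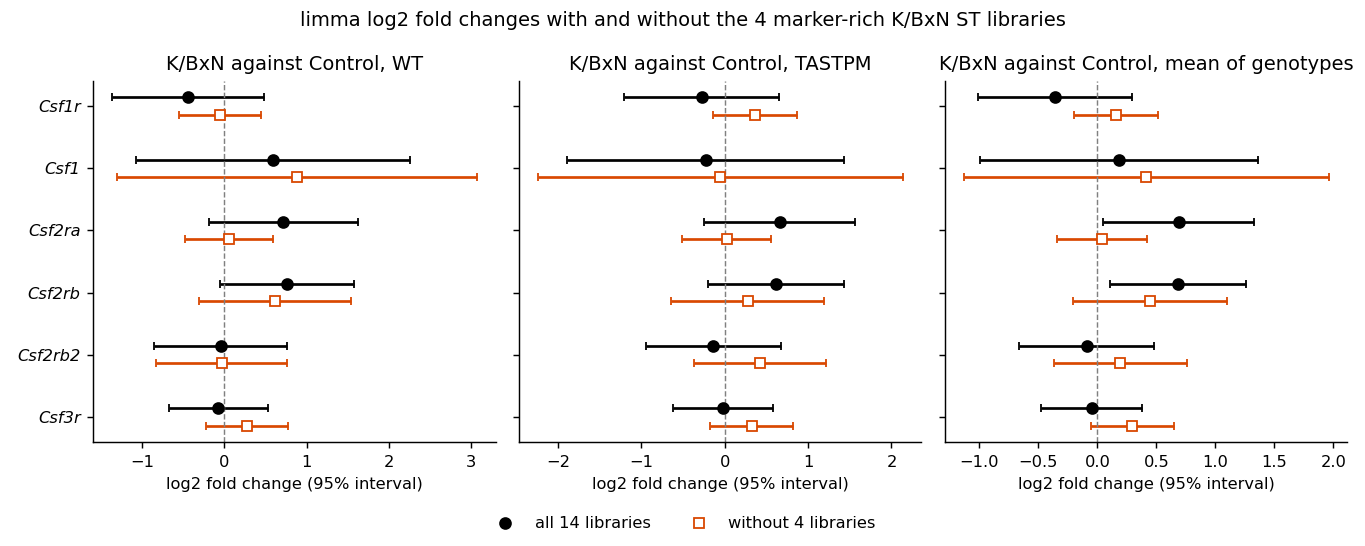
limma log2 fold changes (horizontal axes) of K/BxN ST against Control ST with 95% intervals for the 6 genes, in WT, in TASTPM and averaged over genotypes, from all 14 libraries (filled circles) and without the 4 marker-rich libraries (open squares). Csf2ra moves from 0.69 to 0.04 in the average, and Csf2rb from 0.69 to 0.44.

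Csf3r (ENSMUSG00000028859, plus strand, chr4:125918262-125938236), the G-CSF receptor, which neutrophils express, was not higher in the marker-rich libraries. Neutrophil markers summed to 202082 to 230127 in WT K/BxN ST 1 and TASTPM K/BxN ST 1 and 2. In WT K/BxN ST 2 they summed to 3629, beside 2807 in WT Control ST 3. Microglia marker sums were lower in the marker-rich libraries (309580 to 733590) than in the others (887718 or more). The neutrophil part of Csf3r was not tested. Csf3r stood at 7740, 8286 and 9181 normalized counts in WT Control ST and at 5767, 6811, 9704 and 10517 in WT K/BxN ST. The values were 7111, 3960 and 6491 in TASTPM Control ST and 3684, 5233, 6956 and 7238 in TASTPM K/BxN ST. In both genotypes the marker-rich libraries were the lowest of K/BxN ST. The averaged log2 fold change for K/BxN ST was -0.05, with an interval from -0.47 to 0.38 (adjusted p = 0.944), and 0.30, with an interval from -0.06 to 0.65, without the marker-rich libraries.

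Csf3r was the one member whose genotypes did not overlap in one of the sera, and the difference did not pass adjustment. In Control ST every TASTPM library was below every WT library, as held for 4.71% of all genes, and the log2 fold change was -0.56 ± 0.30 (SE, adjusted p = 0.892; exact permutation p = 0.100, the smallest possible). This difference leaned on TASTPM Control ST 2, without which it was -0.30. In K/BxN ST the groups overlapped and the log2 fold change was -0.51 ± 0.26 (adjusted p = 1.00; exact permutation p = 0.171). Leaving out 1 library at a time moved this value from -0.67 to -0.31. Averaged over sera, a comparison added after these values had been seen, TASTPM stood at 0.689 times WT, a log2 fold change of -0.54 ± 0.20 with an interval from -0.96 to -0.11 (unadjusted p = 0.0168, adjusted p = 1.00; exact permutation p = 0.0171), and 2.05% of all genes had an unadjusted p below 0.05 in this direction. Without the marker-rich libraries the average was -0.54. TASTPM Control ST 2, the lowest of its group for Csf3r and for Csf1r, was not the lowest in microglia markers: their sum was 992033 there, 1187720 in library 1 and 887718 in library 3, against 1166770 to 1228280 in WT Control ST. Red cell marker sums also separated the Control ST groups, at 509 to 1229 in TASTPM and 1515 to 42018 in WT. Sex-linked scores there were 1.27, 1.28 and -0.25 in TASTPM and -0.93, -0.52 and 0.27 in WT. Over the alternatives other than leave-one-out, which included that score as covariate, the Control ST difference was -0.78 to -0.50. The parts of the microglia and red cell content in the Csf3r difference were not tested. Over 14 libraries Csf3r and Csf1r had r = 0.844, and over the 10 libraries 0.772. The genes most like Csf3r were Plcl2 (0.927), Sirpa (0.919), the receptor for the CD47 signal, Cyfip1 (0.918), Slc7a8 (0.915) and Pdk1 (0.915).

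The other members overlapped between the genotypes in both sera. The log2 fold change of TASTPM against WT for Csf1r was -0.42 ± 0.46 (SE) in Control ST (adjusted p = 0.976) and -0.25 ± 0.40 in K/BxN ST, and for Csf2rb it was -0.29 ± 0.41 and -0.43 ± 0.35. Leaving out 1 library at a time moved the Control ST value of Csf1r from -0.62 (without TASTPM Control ST 3) to -0.17 (without TASTPM Control ST 2) and that of Csf2rb from -0.73 (without WT Control ST 2) to -0.050 (without WT Control ST 1). The K/BxN ST value of Csf2rb moved from -0.74 (without TASTPM K/BxN ST 1) to -0.19 (without TASTPM K/BxN ST 4). Csf1 had 0.70 ± 0.83 in Control ST and -0.13 ± 0.72 in K/BxN ST.

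Downstream of these receptors, no gene of any pathway list was called for K/BxN ST averaged over genotypes. Of 29 genes that act next to CSF1R (adaptors, SRC-family kinases, PI3K subunits and phosphatases), 2 had an unadjusted p below 0.05 in the higher direction and 1 in the lower, beside 5.79% and 3.46% of all genes, with a median log2 fold change of 0.10 beside 0.03 over all genes. The smallest p belonged to Fgr, a SRC-family kinase gene (2.68 ± 1.03, SE), at 2085 to 5322 normalized counts in the marker-rich libraries and 17.6 to 652 in the others, and to Mapk3, the gene for ERK1 (0.31 ± 0.13). Without the marker-rich libraries these values were 0.55 ± 0.83 and 0.27 ± 0.16. Of 17 JAK and STAT pathway genes tested out of 19 listed, 3 had an unadjusted p below 0.05 in the higher direction and none in the lower, beside the same shares of all genes, with a median of 0.24. The smallest p belonged to Ywhaz (0.52 ± 0.20, SE), whose 14-3-3 protein binds the common beta chain, and to Socs3 (1.46 ± 0.56), the feedback inhibitor of G-CSF signalling. Ywhaz ran from 13122 to 19222 in the marker-rich libraries and from 6678 to 10509 in the others, and without them the values were 0.14 ± 0.13 for Ywhaz and 0.99 ± 0.64 for Socs3. Socs3 was highest, at 9531, in TASTPM K/BxN ST 3, a library that was not marker-rich.

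Of 12 transcription factor genes known to act at the Csf1r locus, 2 had an unadjusted p below 0.05 in the higher direction and 2 in the lower, beside 5.79% and 3.46% of all genes, and their median was 0.01. Cebpb, a factor of myeloid differentiation, had the smallest p, with 1.09 ± 0.31 (SE, unadjusted p = 0.00310, adjusted p = 0.466). It stood at 1540, 1252 and 796 normalized counts in WT Control ST and at 4743, 3312, 2150 and 1630 in WT K/BxN ST, so the groups did not overlap, as in 3.67% of genes in that direction. In TASTPM it was 1269, 3213 and 2758 with Control ST and 8068, 4344, 3945 and 2511 with K/BxN ST, and the groups overlapped. Without the marker-rich libraries the average for Cebpb was 0.59 ± 0.29. Fos, an immediate early gene, had 4.21 ± 1.60, at 354 to 1697 in the marker-rich libraries and 0 to 161 in the others, and 1.16 ± 1.42 without them. The lower ones, named after their values were seen, were Fli1 (-0.40 ± 0.16, and -0.19 ± 0.12 without the marker-rich libraries) and Irf8 (-0.41 ± 0.19, and -0.12 ± 0.12). Irf8, a factor that microglia need, ran from 7241 to 9980 in WT K/BxN ST and from 10935 to 14186 in WT Control ST without overlap, as did 3.71% of genes in that direction, and in TASTPM it overlapped, at 3913 to 9606 with K/BxN ST and 7349 to 10027 with Control ST. Of 6 genes measured that shed or degrade CSF1R, none had an unadjusted p below 0.05 in the higher direction and 1 in the lower, beside the same shares of all genes. Their median log2 fold change was -0.16. Rhbdf2, a partner of the sheddase ADAM17, had 0.47 ± 0.27 (SE).

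Other cell types were read from their marker sums in the marker-rich and the remaining libraries. Border-associated macrophage markers summed to 11878 to 36609 in the marker-rich libraries and 4.78 to 1993 in the others. Most of each marker-rich sum was F13a1 alone, at 10358 to 32194, a gene also among the monocyte markers that defined these libraries. Dendritic cell markers summed to 1344 to 9254 against 490 to 766, led by Cd209a. Hdc, the only mast cell and basophil marker measured, ran from 0 to 1273 against 0 to 1.17. The ranges overlapped for markers of red cells (688 to 4475 and 509 to 42018, led by Hba-a1), of T, NK and B cells (6357 to 8401 and 4709 to 9004, led by Ighm), of astrocytes (1567 to 3266 and 2932 to 7585, led by Slc1a3), of oligodendrocytes (2940 to 4535 and 3417 to 4938, led by Cnp), of endothelium (303 to 624 and 210 to 548, led by Pecam1) and of neurons (27.1 to 141 and 0 to 291, Snap25 alone).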

How the data were processed

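The deposited table held the signal of 14 libraries as normalized counts that the authors made with DESeq2 from reads aligned with HISAT2 2.1 and counted with featureCounts 1.5.2 on GRCm39. No value column was left unmapped; except in TASTPM K/BxN ST, library numbers in the table differed from the sample titles, so columns were mapped to groups only. Whole reads were recovered for 100% of values (tolerance 0.02 reads). The main test was limma 3.58.1 on log2 (normalized count + 1), for 12645 genes with at least 10 reads in 7 libraries. edgeR 4.0.16 and DESeq2 1.42.0 on the recovered reads were alternatives, and all were run on simulated counts with the spread of the Control ST libraries. That simulation held no marker-rich libraries, and its planted changes were larger than those of the members. It therefore does not show how well changes of the members' size would be found. Per the study's methods each group held separate mice, although the labels tie no library to an animal. Members and lists were chosen with earlier results of these data known. Named genes were the members, all genes of the ligand and receptor lists, the 2 smallest p of each other pathway list, the 5 genes most like each member by r (for Csf1r also the 3 most opposed), and the leading marker of each cell type. Some genes that this rule names are not reported here. Lengths, coordinates and sequences came from a later GENCODE annotation of GRCm39. Differences in amplification from small cell numbers can widen the spread of low counts.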

Additional observations from a re-analysis of the deposited data

How the results depend on the processing

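No paired analysis was possible because each library number occurs once in the labels and no number recurs between groups. Not every member comparison was checked under the alternatives. Those checked were the serum effects for every member, the interaction for Csf1, and genotype averaged over sera for Csf3r. Genotype within each serum was checked for Csf1r, Csf1, Csf2rb and Csf3r. In these comparisons no member passed adjustment under any alternative run. Over all such runs but the leave-one-out fits, the members' adjusted p ran from 0.163 up. limma called 1 gene in WT and none in the other comparisons. edgeR called none (782 genes at an unadjusted p below 0.05 for the serum effect in WT, 509 in TASTPM and 1212 in the average), whereas DESeq2 called 127 genes for the serum effect in WT, 18 in TASTPM, 179 in the average, 12 in the interaction, 41 for genotype in Control ST and 11 for genotype averaged over sera; the cause was not tested. The 1 gene called in WT became 0 with a pseudocount of 5, with a fit of 1 genotype or 1 serum alone, by edgeR, with the neutrophil and monocyte score as covariate, and without the libraries above the marker limit or the 4 marker-rich ones. For genotype, 1 gene was called with that score in Control ST and averaged over sera, with a sex-linked score in Control ST, without the libraries above the limit averaged over sera, and without the 4 marker-rich libraries in both.

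The members' direction turned as follows, in log2 fold change, and the cause was not tested. With the neutrophil and monocyte score as covariate, the serum effect in WT was 0.074 for Csf1r, 0.21 for Csf2rb2 and 0.27 for Csf3r, in TASTPM it was 0.29 for Csf1r, 0.10 for Csf1, -0.036 for Csf2ra, 0.14 for Csf2rb2 and 0.35 for Csf3r, and in the average 0.18 for Csf1r, 0.17 for Csf2rb2 and 0.31 for Csf3r. Without the 5 libraries above a marker limit set from the Control ST libraries, which takes out WT Control ST 3 as well, Csf3r was 0.34 in WT. In TASTPM, where this setting and the next give the same values, Csf1r was 0.37, Csf2rb2 0.42 and Csf3r 0.32, and in the average Csf1r was 0.16, Csf2rb2 0.10 and Csf3r 0.33. Without the 4 marker-rich libraries, a choice made after seeing the data, Csf3r was 0.27 in WT, and in the average Csf1r was 0.16, Csf2rb2 0.20 and Csf3r 0.30. With the sex-linked score, Csf3r was 0.20 in TASTPM and 0.012 in the average. With library totals, Csf2rb2 was 0.011 in WT. By edgeR and DESeq2, Csf1 was 0.15 and 0.16 in TASTPM, 0.059 and 0.074 in the interaction, and 0.27 and 0.28 for genotype in K/BxN ST.

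Leaving out 1 library at a time moved the count of genes called by limma to between 0 and 17 for the serum effect in WT (17 without WT Control ST 3, 14 without WT Control ST 2), 0 and 1 in TASTPM, 0 and 9 in the average, 0 and 3 in the interaction, 0 and 11 for genotype in Control ST and 0 and 2 averaged over sera. The members whose direction turned were Csf1 (-0.39 to 1.33), Csf2rb2 (-0.23 to 0.10) and Csf3r (-0.21 to 0.080) for the serum effect in WT. In TASTPM they were Csf1r (-0.52 to 0.088), Csf1 (-0.75 to 0.18), Csf2rb2 (-0.38 to 0.20) and Csf3r (-0.28 to 0.18), and in the average Csf1 (-0.31 to 0.55), Csf2rb2 (-0.21 to 0.075) and Csf3r (-0.18 to 0.050). Csf1 ran from -1.56 to 0.16 in the interaction and from -0.29 to 1.43 for genotype in Control ST, and for genotype in K/BxN ST Csf1r ran from -0.49 to 0.11 and Csf1 from -0.65 to 0.28. In all 14 such fits Csf2ra and Csf2rb stayed higher in K/BxN ST in both genotypes, by 0.31 or more. Csf3r stayed lower in TASTPM in both sera, with values of -0.73 to -0.30 in Control ST and -0.67 to -0.31 in K/BxN ST. Csf1 had 41 to 537 reads per library.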
